A study of Homo sapiens with 4 samples.

Results

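The genes described here are 10 survival factors outside the BCL2 family: HAX1, AVEN, DAD1, TMBIM6, TMBIM4, HSPB1, API5, AATF, PIM2 and FAIM. They were taken by gene symbol from a table of 16328 transcript rows that covers 15230 gene symbols. Each of the 10 genes had exactly 1 row, and none of these rows shared its values with a row of another gene. The genes were proposed with the contrast below already known, so their levels are described and not tested.

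Polyadenylated RNA was measured in Jurkat, a human T cell line established from a leukemia. For 3 libraries, SLEAR shRNA-1 to -3, cells had been transduced with a lentivirus that expresses a short hairpin RNA against SLEAR, and values of these libraries are listed in that order throughout. They were set against 1 Control library, which the series design calls Control shRNA. All 4 libraries came from the same line, were read at the transcripts' 3' ends by MAPS, a multiplexed method, and hold values in RPM, read numbers scaled to the library's total. Whether these numbers mark different hairpins, separate cultures or repeats, and whether the cells were a selected pool or clones, is not in the labels, so every spread given here may be technical. No row carries the name SLEAR, and the knockdown was not checked here.

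Programmed cell death through mitochondria is best known for the BCL2 family, but many other proteins hold it back at other points. Some act in mitochondria or on the apoptosome, the complex in which APAF1 activates caspases. Others sit in membranes of the endoplasmic reticulum or Golgi, where they affect calcium release or protein glycosylation, work as chaperones, or act as kinases and nuclear regulators. In T cells such proteins help set how readily a cell dies after loss of cytokine, stress or death receptor signals.

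Low values came in steps of 1 read, and from these the depth was estimated at 4814166 to 7524254 reads in the SLEAR shRNA libraries and 8384890 reads in Control. SLEAR shRNA-3 stood apart: the Pearson correlation of log2 values across the 12350 rows tested was 0.977 between SLEAR shRNA-1 and -2, but 0.883 and 0.886 for SLEAR shRNA-3 with each of them, and in SLEAR shRNA-3 6941 rows had a value of 0 against 2984 in Control. Some results are therefore also given without that library. Of 12 T cell markers all were in the table and 10 reached at least 10 RPM in a library, with summed levels of 4528 to 4659 RPM in the SLEAR shRNA libraries and 4166 RPM in Control. The sum hides single markers of low level. CD7 measured 8.51, 8.90 and 16.2 RPM in the SLEAR shRNA libraries, against 2.86 RPM in Control, and reached 10 RPM only in SLEAR shRNA-3. CD28 went the other way, at 1.28, 2.92 and 0 RPM, against 7.87 RPM. The 3 B cell markers in the table summed to 19.7 to 23.1 RPM with SLEAR shRNA and 12.05 RPM in Control, most of it CD79A, and their part in the results below was not tested. Summed myeloid, erythroid, fibroblast and epithelial markers stayed at or below 3.19 RPM per list in every library, with ITGAM and KRT18 at 0.

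Of the 10 survival factors, 5 were higher than Control in all 3 SLEAR shRNA libraries: HAX1, AVEN, DAD1, HSPB1 and PIM2. Only TMBIM4 was lower in all 3, and AATF, API5, TMBIM6 and FAIM lay on both sides. Of all 12350 rows tested, 17.8% were higher than Control in all 3 libraries and 28.6% lower. Among the 4851 rows with a mean log2(RPM + 1) of at least 4, which include 8 of the 10 genes, 25% were higher and 25.6% lower. The genes were proposed from these same values, so nothing is read from the difference between their count and these shares. Without SLEAR shRNA-3, 6 of the 10 were higher in both other libraries, where 35.2% of all tested rows were, and 1 was lower, where 41% were. The sixth is FAIM, which reached 1 RPM, the level required for the fit, only in SLEAR shRNA-2, where it was high. The median log2 difference, SLEAR shRNA minus Control, was 0.33 over the 8 better-expressed genes, against -0.02 over the 4851 rows of that level. The median over all rows tested was -0.11, and it lay at -0.02, -0.04 and -0.23 in SLEAR shRNA-1, -2 and -3, and at -0.03 without SLEAR shRNA-3. In bulk RNA a lower share of cells with a transcript and less of it per cell cannot be told apart.

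The promoters of the 5 genes that were higher in all 3 libraries are shown, because these are the genes whose SLEAR shRNA libraries all lay above Control. Each is 250 bases before to 50 bases after the annotated start, from RefSeq on GRCh38.p14 (the submitters' processing notes name hg19), read 5′ to 3′ on the gene's strand. Capitals mark every match, on either strand and with overlaps allowed, to 7 motifs. These were the GC box bound by SP factors, GGGCGG, the CCAAT box, spelled by its name, the TATA box of core promoters, TATAAA, the E-box bound by MYC and USF factors, CACGTG, the site of ETS factors, CCGGAAG, the heat shock element, GAANNTTC, and the cyclic AMP response element or CRE, TGACGTCA.
HAX1 (chr1:154272379-154272678, plus strand): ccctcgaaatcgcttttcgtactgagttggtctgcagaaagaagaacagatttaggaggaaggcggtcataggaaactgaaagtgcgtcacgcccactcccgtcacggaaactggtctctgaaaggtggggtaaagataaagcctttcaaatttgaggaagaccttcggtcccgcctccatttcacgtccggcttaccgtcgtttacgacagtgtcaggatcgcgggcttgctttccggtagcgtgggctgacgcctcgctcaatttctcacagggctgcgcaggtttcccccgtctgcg
AVEN (chr15:34039155-34039454, minus strand): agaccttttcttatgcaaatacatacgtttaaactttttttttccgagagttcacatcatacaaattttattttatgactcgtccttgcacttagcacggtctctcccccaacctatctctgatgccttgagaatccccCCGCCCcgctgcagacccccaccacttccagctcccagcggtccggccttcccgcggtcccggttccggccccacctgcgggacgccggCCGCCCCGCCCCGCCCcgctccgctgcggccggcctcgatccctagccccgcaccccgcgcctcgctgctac
DAD1 (chr14:22589175-22589474, minus strand): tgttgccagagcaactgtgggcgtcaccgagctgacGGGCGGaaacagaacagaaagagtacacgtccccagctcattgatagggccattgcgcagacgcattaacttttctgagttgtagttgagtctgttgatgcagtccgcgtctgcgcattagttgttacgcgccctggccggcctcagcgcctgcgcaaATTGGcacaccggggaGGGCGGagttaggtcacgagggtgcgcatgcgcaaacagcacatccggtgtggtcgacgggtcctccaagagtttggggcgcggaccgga
HSPB1 (chr7:76302423-76302722, plus strand): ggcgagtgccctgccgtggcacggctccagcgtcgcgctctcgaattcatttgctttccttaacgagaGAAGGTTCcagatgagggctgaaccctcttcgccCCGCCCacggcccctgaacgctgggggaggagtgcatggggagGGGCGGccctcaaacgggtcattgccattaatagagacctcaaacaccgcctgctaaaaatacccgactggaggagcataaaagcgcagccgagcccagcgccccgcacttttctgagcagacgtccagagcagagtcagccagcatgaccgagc
PIM2 (chrX:48918975-48919274, minus strand): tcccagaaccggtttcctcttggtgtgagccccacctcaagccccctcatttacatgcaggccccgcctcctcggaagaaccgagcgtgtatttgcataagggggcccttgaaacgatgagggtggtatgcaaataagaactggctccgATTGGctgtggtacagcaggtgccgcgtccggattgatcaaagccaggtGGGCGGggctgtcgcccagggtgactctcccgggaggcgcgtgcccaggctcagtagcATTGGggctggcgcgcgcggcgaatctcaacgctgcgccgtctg

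A promoter was found for 9 of the 10 genes, all but TMBIM4. GC boxes were present in 7 of these 9, against 45.0% of 35116 RefSeq promoters of the same length. Those promoters were not limited to genes tested here or to a like share of G and C, so nothing is read from differences to them. CCAAT boxes were present in 5 of 9, against 34.6% of all promoters. HSPB1 alone of the 9 held the letters of a heat shock element, which is the sequence that the heat shock factor HSF1 binds, and 6.77% of all promoters hold them. The HAX1 promoter held none of the 7 motifs in this window, whereas AVEN held 4 overlapping or separate GC boxes and DAD1 and HSPB1 held 2 each. PIM2 held 1 GC box and 2 CCAAT boxes. None of the 9 held the letters TATAAA, which 11.5% of all promoters have, and variants of the TATA box were not searched. The 5 promoters thus share no single motif among those searched, and a match describes letters only.

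HAX1, a mitochondrial protein that protects cells from death and whose loss in people causes severe neutropenia, measured 1948, 1759.6 and 1837 RPM in the SLEAR shRNA libraries, against 1269 RPM in Control. The 3 SLEAR shRNA libraries averaged 1848 ± 94.9 RPM (SD, n = 3), which is 45.6% above Control, and all of them lay above it. The gap between Control and the lowest SLEAR shRNA library, 490.6 RPM, was larger than the whole range among the SLEAR shRNA libraries, 188.7 RPM. HAX1 had at least 8843 estimated reads in each SLEAR shRNA library and 10641 in Control, so counting error is small: the exact 95% Poisson interval from these reads was 1730 to 1789.9 RPM in SLEAR shRNA-2 and 1245 to 1293 RPM in Control. Such intervals cover counting error only. The log2 difference was 0.54 ± 0.20 (SE of the fit over all rows), with 0.62, 0.47 and 0.53 in the 3 libraries.

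AVEN, which binds BCL2L1 and APAF1 and holds back the apoptosome, measured 33.6, 36.9 and 40.1 RPM in the SLEAR shRNA libraries, against 25.4 RPM in Control. The SLEAR shRNA mean was 36.9 ± 3.23 RPM (SD, n = 3), 45.2% above Control. As with HAX1, the gap to Control (8.22 RPM) was larger than the range among the SLEAR shRNA libraries (6.47 RPM). Among all tested rows, 3.37% had such a gap on the higher side, and among the 4851 better-expressed rows 6.29%; on the lower side the shares were 9.83% and 8.14%, with no survival factor among them. Counting error was wider here, and the Poisson intervals of SLEAR shRNA-1, 29.5 to 38.2 RPM, and Control, 22.1 to 29.1 RPM, were close to each other. The log2 difference of AVEN was 0.52 ± 0.29 (SE). The AVEN locus overlaps CHRM5 on the opposite strand in GENCODE 29, and the sources used here do not give whether the counting used strand.

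**Figure D1:**
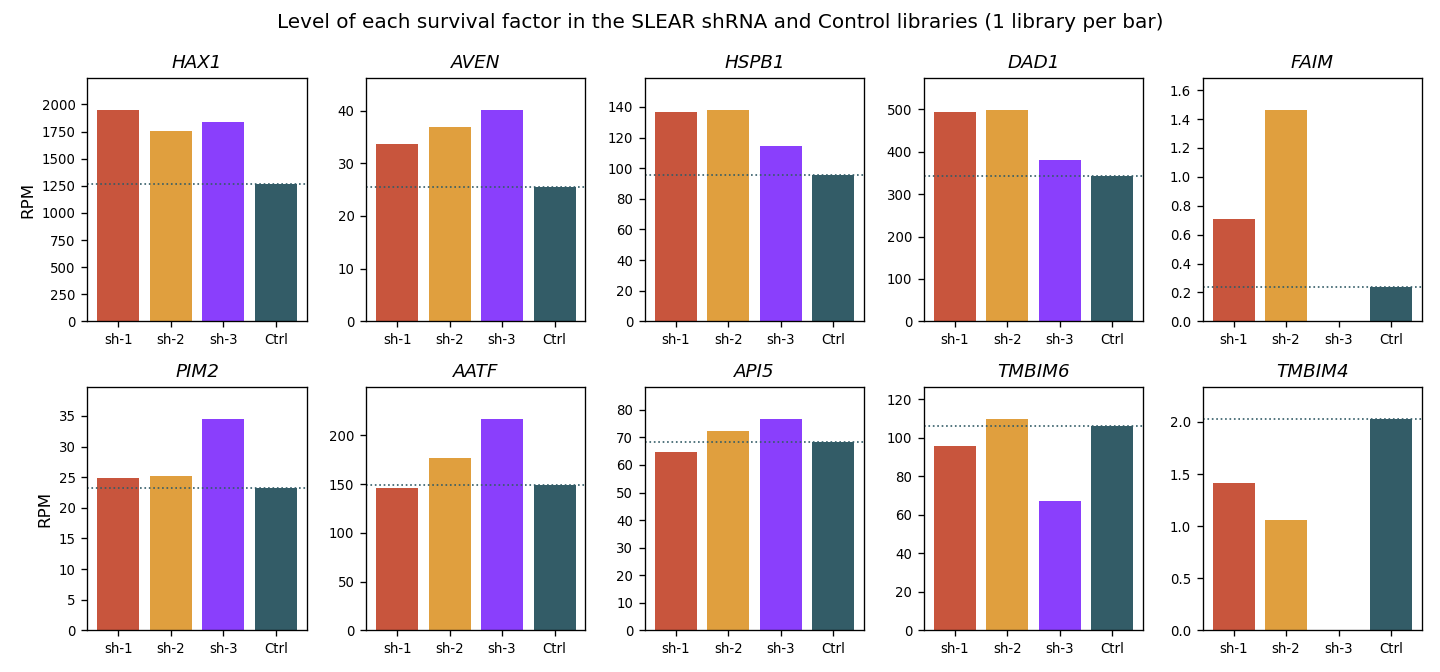
Level in RPM (vertical axes, each starting at 0) of the 10 survival factors in SLEAR shRNA-1, -2 and -3 and in Control, 1 bar per library, with the Control level as a dotted line. HAX1, with 1948, 1759.6 and 1837 RPM against 1269 RPM, shows the 3 SLEAR shRNA bars close together above the line, while AATF and TMBIM6 straddle it.

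DAD1, TMBIM6 and TMBIM4 encode membrane proteins of the endoplasmic reticulum or Golgi, and they did not share a direction. DAD1, a subunit of the oligosaccharyltransferase that attaches N-linked sugars, measured 494, 498 and 381 RPM in the SLEAR shRNA libraries, against 343 RPM in Control. All 3 SLEAR shRNA libraries were above Control, but SLEAR shRNA-3 was much nearer to it than the other two, so the range among them (117.8 RPM) exceeded the gap to Control (37.4 RPM). The log2 differences of DAD1 were 0.53, 0.54 and 0.15, with a mean of 0.40 ± 0.24 (SE).

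TMBIM6, an inhibitor of BAX-driven death in the membrane of the endoplasmic reticulum, measured 95.9, 109.8 and 67.3 RPM in the SLEAR shRNA libraries, against 106 RPM in Control. The groups overlapped, since Control lay between SLEAR shRNA-1 and -2, and the low mean came from SLEAR shRNA-3. Its log2 difference was -0.25 ± 0.34 (SE), and -0.05 without SLEAR shRNA-3. Its gene overlaps FMNL3 on the opposite strand. TMBIM4, a Golgi member of the same family, measured 1.42, 1.06 and 0 RPM in the SLEAR shRNA libraries, against 2.03 RPM in Control. These values stand for about 10, 8 and 0 reads against 17, and the Poisson intervals of SLEAR shRNA-1 (0.68 to 2.61 RPM) and Control (1.18 to 3.25 RPM) overlap. A count of 0 in SLEAR shRNA-3 allows up to 3 reads, which is 0.623 RPM, by counting error only, and a difference of TMBIM4 was not detectable at this depth between SLEAR shRNA-1 and Control.

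HSPB1, the small heat shock protein HSP27, a chaperone that keeps denatured proteins soluble and interferes with caspase activation, measured 137, 138 and 114 RPM in the SLEAR shRNA libraries, against 95.5 RPM in Control. All 3 SLEAR shRNA libraries were above Control, with SLEAR shRNA-3 the lowest, and the mean of 129.7 ± 13.4 RPM (SD, n = 3) was 35.7% above it. The range among the SLEAR shRNA libraries was 23.7 RPM and the gap to Control 18.7 RPM. HSPB1 has 2 annotated pseudogenes in GENCODE 29 that could share its reads, which makes the level uncertain. Its log2 difference was 0.43 ± 0.22 (SE).

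The nuclear factors differed little or not in 1 direction. API5, an inhibitor of apoptosis that binds ACIN1, measured 64.7, 72.3 and 76.6 RPM in the SLEAR shRNA libraries, against 68.5 RPM in Control, which lay inside the range. Its log2 difference was 0.05 ± 0.23 (SE), and its 2 annotated pseudogenes could share reads. AATF, which is also called Che-1 and acts in ribosome production, measured 146, 176 and 217 RPM in the SLEAR shRNA libraries, against 149 RPM in Control. SLEAR shRNA-1 was just below Control and SLEAR shRNA-3 well above it, so the groups overlapped. The log2 difference of AATF was 0.25 ± 0.28 (SE), and 0.11 without SLEAR shRNA-3.

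PIM2, a constitutively active kinase downstream of cytokine receptors that phosphorylates BAD, measured 24.8, 25.3 and 34.5 RPM in the SLEAR shRNA libraries, against 23.3 RPM in Control. All 3 were above Control, yet the Poisson interval of SLEAR shRNA-1 (21.3 to 28.8 RPM) overlapped that of Control (20.1 to 26.8 RPM), and the gap of 1.57 RPM was small beside the range of 9.65 RPM. The log2 difference was 0.25 ± 0.36 (SE), and 0.10 without SLEAR shRNA-3. FAIM, an inhibitor of Fas-driven death, measured 0.709, 1.46 and 0 RPM in the SLEAR shRNA libraries, against 0.239 RPM in Control. That is about 5, 11 and 0 reads against 2, and FAIM entered the test only through its value in SLEAR shRNA-2, so no fold is given.

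**Figure D2:**
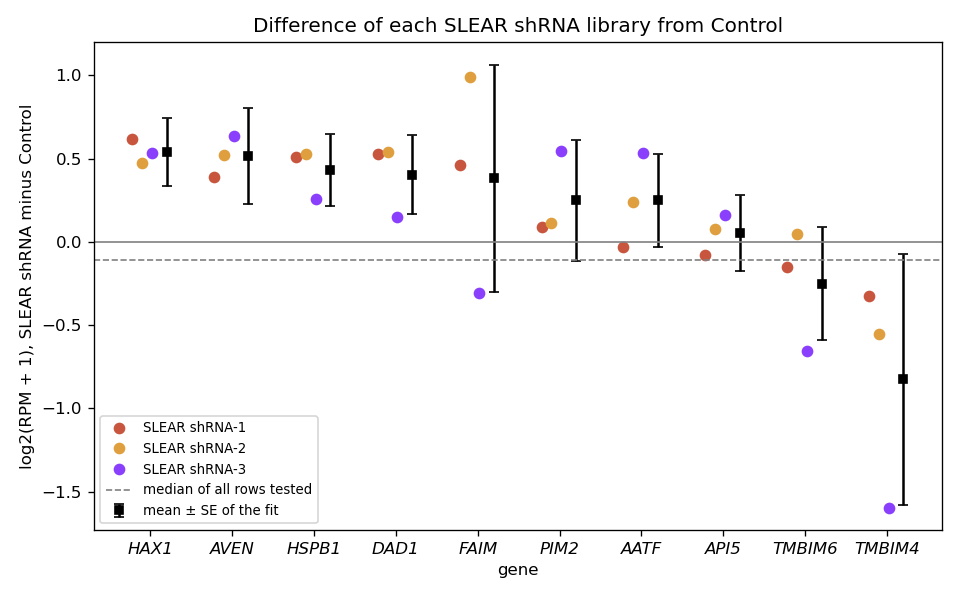
Difference from Control in log2(RPM + 1) for each SLEAR shRNA library (coloured circles) and their mean with the SE of the fit (black squares), for each survival factor from the highest mean to the lowest. HAX1 has the tightest 3 circles among the genes above 0, at 0.47 to 0.62, and the dashed line at -0.11 is the median of all 12350 rows tested.

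The spread among the SLEAR shRNA libraries differed from gene to gene. For HAX1 the SD of the 3 log2 differences was 0.07, against a median of 0.18 among the 64 rows within 0.5 log2 units of its mean level. AVEN had an SD of 0.12, against a median of 0.34 among 1441 rows of like level, and HSPB1 had 0.15 against 0.24 among 759 rows. TMBIM6, at 0.36 against 0.25 among 919 rows, and AATF, at 0.28 against 0.23 among 593 rows, had more spread than the median row of their level. DAD1, at 0.22 against 0.20 among 248 rows, was near that median. Less spread than the median was not particular to the higher genes, since API5 had 0.12 against 0.28 among 1005 rows. PIM2 had 0.26 against 0.36 among 1480 rows.

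The size of these differences was not rare among the better-expressed rows. A log2 difference at least as high as that of HAX1 was seen in 345 of 4851 rows, which is 7.11%. For AVEN this share was 7.92%, for HSPB1 12.1% and for DAD1 13.5%. For PIM2 it was 24.6% and for AATF 24.7%.

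**Figure D3:**
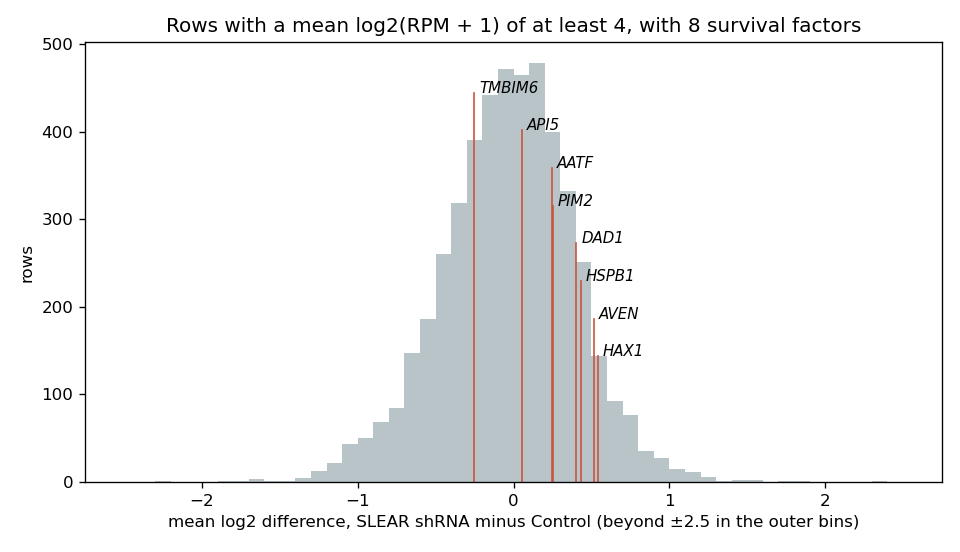
Histogram of the mean log2 difference, SLEAR shRNA minus Control (horizontal axis), over the 4851 rows with a mean log2(RPM + 1) of at least 4 (vertical axis, number of rows), with a line for each of the 8 survival factors among them. HAX1, AVEN, HSPB1 and DAD1 sit on the right slope at 0.54, 0.52, 0.43 and 0.40, and TMBIM6 lies left of 0 at -0.25.

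The fit over all rows asked which transcripts differ from Control with SLEAR shRNA. By limma-trend with Benjamini-Hochberg adjustment at 0.05, 0 of 12350 rows were called (0%), and so none of the survival factors was, while an unadjusted p under 0.05 was reached by 92 higher and 239 lower rows. Limma-voom on estimated reads also called 0, where 69 higher and 222 lower rows had an unadjusted p under 0.05. That lean to the lower side was not seen among rows of at least 5 RPM in a library (79 higher and 64 lower) or among the 4851 better-expressed rows (71 and 63), and without SLEAR shRNA-3 there were 775 higher and 893 lower rows at an unadjusted p under 0.05. With 1 Control library, the spread rests on the 3 SLEAR shRNA libraries alone and Control is assumed to vary like them. Among the 4851 better-expressed rows, and without SLEAR shRNA-3, which was a choice made after the data were seen, limma-trend called 697 rows (14.4%), 345 of them higher (7.11%) and 352 lower (7.26%). HAX1, DAD1 and HSPB1 were among the higher ones, with log2 differences of 0.54, 0.53 and 0.52, while AVEN, AATF, PIM2, API5 and TMBIM6 were not called. Without SLEAR shRNA-3 but over all 12350 rows, limma-trend called 0 (smallest adjusted p = 0.368), and HAX1, DAD1 and HSPB1 were not called either. Since the genes were proposed with this contrast in view, nothing is read from that count, and the spread in that fit was pooled completely over rows.

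Of the rows with a mean log2(RPM + 1) of at least 4, the 5 most like HAX1 in their 3 log2 differences from Control were AUP1, TOMM40L, TMEM115, ZNF428 and PHF19, out of 4850 rows compared. Likeness was the Euclidean distance over 3 differences that share 1 Control, and it was 0.05 for AUP1 and 0.09 for PHF19. AUP1, a lipid droplet protein, measured 582, 518 and 531 RPM in the SLEAR shRNA libraries, against 367 RPM in Control. TOMM40L measured 48.1, 46.1 and 48.0 RPM in the SLEAR shRNA libraries, against 32.7 RPM in Control. Both lay above Control in every SLEAR shRNA library, as the choice by likeness to HAX1 implies.

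Partners and paralogs were described by lists, counted here without the survival factors themselves, and in each list 0 genes were called by limma-trend. Their counts on 1 side of Control stand beside shares of 17.8% higher and 28.6% lower among all rows tested, and their medians beside -0.11. These list counts and medians include SLEAR shRNA-3 and are not given without it, so low medians may rest on that library. Among 11 subunits of the oligosaccharyltransferase other than DAD1, 3 were higher and 3 lower in all 3 libraries, with a median log2 difference of 0.15. Of the lower ones, STT3A and TUSC3 reached 1 RPM, the level required for the fit, only in Control. STT3A measured 0.43, 0.66 and 0 RPM in the SLEAR shRNA libraries, against 1.31 RPM in Control. TUSC3 was at 0.28, 0.27 and 0 RPM, against 1.07 RPM, so nothing is read from their direction. KRTCAP2, a small accessory subunit, measured 254, 280.3 and 376 RPM in the SLEAR shRNA libraries, against 222 RPM in Control. STT3B, a catalytic subunit, measured 162, 158 and 95.3 RPM in the SLEAR shRNA libraries, against 179 RPM in Control. The complex was therefore not uniformly higher, and SLEAR shRNA-3 was the highest library for KRTCAP2 and the lowest for STT3B.

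Of 4 tested HAX1 partners, 0 were higher and 2 lower in all 3 libraries, with a median log2 difference of -0.58. That median lies between CTTN, with log2 differences of -0.39, -0.61 and -2.37, and HCLS1, with 0.15, -0.01 and -0.25. CTTN, the actin-binding protein cortactin, measured 27.7, 23.5 and 6.23 RPM in the SLEAR shRNA libraries, against 36.5 RPM in Control, so its low mean rests largely on SLEAR shRNA-3. PARL, the mitochondrial protease that works with HAX1, measured 61.7, 64.3 and 53.4 RPM in the SLEAR shRNA libraries, against 55.3 RPM in Control, and the groups overlapped. HCLS1, the binding partner after which HAX1 is named, measured 182, 163 and 138 RPM in the SLEAR shRNA libraries, against 164 RPM in Control, and likewise lay on both sides.

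Of 7 tested small heat shock proteins and regulators other than HSPB1, 1 was higher and 2 lower in all 3 libraries, with a median log2 difference of -0.10. That median is the value of HSF2, which measured 0.99, 1.06 and 0 RPM in the SLEAR shRNA libraries, against 0.72 RPM in Control. The log2 differences of HSF2 were 0.22, 0.27 and -0.78, so it was below Control only in SLEAR shRNA-3. HSF1, the factor that drives heat shock genes, measured 237, 240.4 and 263 RPM in the SLEAR shRNA libraries, against 174 RPM in Control, a log2 difference of 0.50 ± 0.18 (SE). MAPKAPK5, a kinase that can phosphorylate HSPB1, measured 60.2, 61.5 and 64.6 RPM in the SLEAR shRNA libraries, against 75.5 RPM in Control. HSF1 and HSPB1 were thus both higher in all 3 libraries, whereas the kinase was lower.

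Of 8 tested partners of AATF, 1 was higher and 4 lower in all 3 libraries, with a median log2 difference of -0.39. That median lies between CDKN1A, with log2 differences of 0.15, 0.28 and -1.20, and NGDN, with -0.18, -0.27 and -1.08. Of the lower ones, MAPT reached 1 RPM only in Control, at 1.55 RPM, against 0.142, 0.399 and 0 RPM with SLEAR shRNA. Nothing is read from its direction. RB1, the retinoblastoma protein that AATF binds, measured 39.9, 48.1 and 17.0 RPM in the SLEAR shRNA libraries, against 71.1 RPM in Control. NGDN, which forms a complex with AATF in ribosome production, measured 17.4, 16.3 and 8.90 RPM in the SLEAR shRNA libraries, against 19.9 RPM in Control. For both of these SLEAR shRNA-3 was the lowest library, while it was the highest for AATF.

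Of 11 tested inputs and substrates of PIM2, 3 were higher and 2 lower in all 3 libraries, with a median log2 difference of 0.08. EIF4EBP1, a translation repressor that PIM kinases phosphorylate, measured 39.6, 40.5 and 35.7 RPM in the SLEAR shRNA libraries, against 25.6 RPM in Control. STAT3, a cytokine-activated transcription factor, measured 25.3, 26.4 and 32.4 RPM in the SLEAR shRNA libraries, against 22.1 RPM in Control. IL2RG, the common chain of several cytokine receptors, measured 1273, 1204 and 1102 RPM in the SLEAR shRNA libraries, against 1472 RPM in Control. The receptor chain thus lay on the lower side while the substrate EIF4EBP1 lay on the higher side.

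The remaining lists were small. Of 4 tested AVEN partners, 1 lay above Control in all 3 libraries and 1 below it, with a median log2 difference of 0.06. The partner below Control, ATM, reached 1 RPM only in Control, at 1.43 RPM, against 0.57, 0 and 0.62 RPM with SLEAR shRNA. Nothing is read from its direction. BCL2L1, the survival protein BCL-XL that AVEN binds, measured 41.4, 51.3 and 37.0 RPM in the SLEAR shRNA libraries, against 36.7 RPM in Control. Of the 2 other PIM kinases 0 lay on 1 side of Control, and PIM3 was at 166, 176 and 192 RPM in the SLEAR shRNA libraries, against 174 RPM in Control. PIM1, at a low level, was at 3.26, 2.39 and 0 RPM, against 0.119 RPM, so it was below Control only in SLEAR shRNA-3. The other 2 tested TMBIM family genes, TMBIM1 and GRINA, also lay on both sides, with a median log2 difference of -0.19. Their log2 differences in SLEAR shRNA-1, -2 and -3 were 0.28, 0.335 and -1.90 for TMBIM1, and 0.40, 0.50 and -0.75 for GRINA. Both were below Control only in SLEAR shRNA-3. Of 4 tested API5 and FAIM partners, 1 was higher and 0 lower in all 3 libraries, with a median log2 difference of -0.28. That median lies between XIAP, with log2 differences of -0.68, -1.61 and 0.02, and ACIN1, with 0.11, 0.14 and 0.31.

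**Figure D4:**
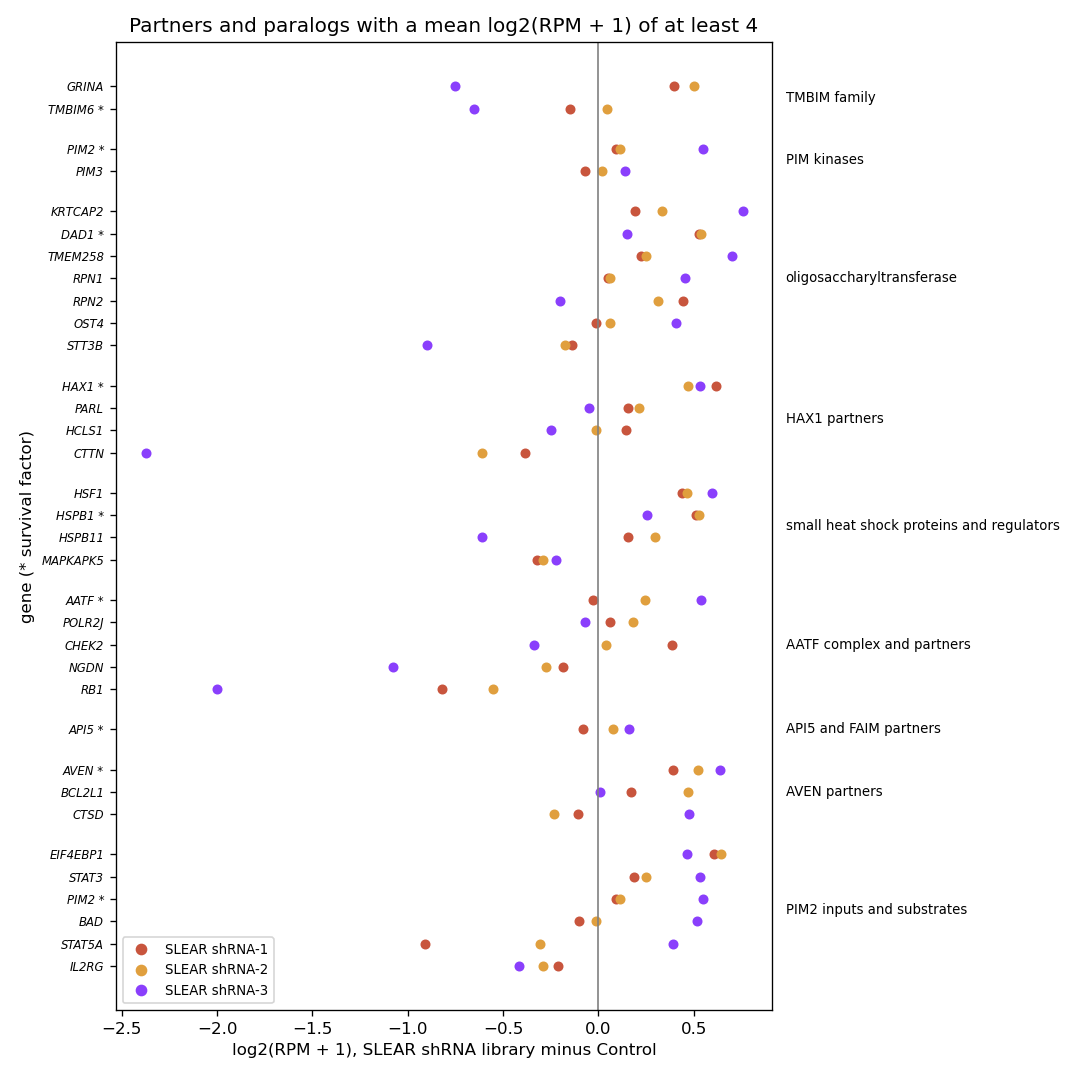
Difference from Control in log2(RPM + 1) of each SLEAR shRNA library (horizontal axis) for listed partners and paralogs with a mean log2(RPM + 1) of at least 4, grouped by list, with asterisks on the survival factors. SLEAR shRNA-3 lies far to the left of the other two for CTTN and RB1 and to the right for KRTCAP2 and AATF.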

How the data were processed

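Per the labels' protocols, RNA was extracted with Trizol, treated with DNase and sequenced by MAPS. The authors deposited RPM values, 1 column per library. FastQC, Bowtie2, SAMtools and the build hg19 are named, without versions, in the submitters' processing notes. The sources used here do not give read assignment, filters or strand.

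Rows identical in all 4 libraries were merged where their mean reached 1 RPM (177 rows removed, 16151 left). Those that reached 1 RPM in any library were fitted with limma-trend (limma 3.58.1, R 4.3.3) on log2(RPM + 1), a scale that understates differences of low rows, with Benjamini-Hochberg adjustment at 0.05. Reads were estimated from the step of 1 read; 96.4% to 96.8% of values above 0 were whole within 0.05 reads, but some rows lay below 1 read, so values were not treated as counts. The fit was also run on simulated data, with the same spread beyond counting error in all 4 libraries. In the deposited values SLEAR shRNA-3 stood apart, so nothing is read from that run.

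The members and lists were chosen with earlier results of these data known. Named partners were up to 3 per list, those with the largest differences. They had a mean log2(RPM + 1) of at least 4 and all libraries on 1 side of Control. PARL, HCLS1, PIM1, PIM3, TMBIM1, GRINA, STT3A, TUSC3, MAPT, ATM, HSF2, CDKN1A, XIAP, ACIN1 and single markers were chosen after their values were seen. Motifs and descriptions of spread and rank were also chosen afterwards. Values of some listed genes are not reported here.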

Additional observations from a re-analysis of the deposited data

How the results depend on the processing

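No paired analysis was possible because there was only 1 Control library for the SLEAR shRNA libraries. Over 13 alternatives the log2 difference kept its sign for HAX1 (0.50 to 0.58), AVEN (0.46 to 0.58), DAD1 (0.34 to 0.53), HSPB1 (0.38 to 0.52), PIM2 (0.10 to 0.33), AATF (0.11 to 0.39) and TMBIM6 (-0.40 to -0.05). That of API5, which was near 0, turned to -0.0013 in both fits without SLEAR shRNA-3, and leaving out 1 SLEAR shRNA library at a time it ran from -0.0013 to 0.12. That of TMBIM4 ran between -1.92 and -0.28 over 10 alternatives. Leaving out 1 SLEAR shRNA library at a time gave 5 to 7 genes higher in all remaining libraries and 1 to 2 lower. The median of the 10 survival factors was then 0.28 to 0.34. With all libraries it was 0.32, where it rests on PIM2 and FAIM. That median was 0.23 with a pseudocount of 5. The number lower in all libraries was 0 where rows were required to reach 5 RPM in a library or a mean log2 value of 4, with or without SLEAR shRNA-3, because TMBIM4 was then not tested. Rows called were 697 with both that mean filter and SLEAR shRNA-3 left out, against 0 under every other alternative run. TMM factors were not run as planned, since the values are not counts; a trimmed mean of log ratios took their place and was chosen, like the mean filter, after the data were seen. Depth limits TMBIM4 and FAIM, which had at most 17 estimated reads in a library.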
